A study of Mus musculus with 120 samples.

Results

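The liver releases hormones and carrier proteins into the blood, and 9 genes of this kind are described here across the livers of 10 mouse strains. They are Fgf21, Gdf15, Inhbe and Lect2, which encode secreted signalling proteins; Ahsg and Fetub, which encode the plasma proteins fetuin-A and fetuin-B; Igfbp2 and Angptl4, which encode secreted modulators of growth factor and lipase activity; and Lepr, which encodes the leptin receptor. The 9 genes are given by name and not by a threshold on their values, but were chosen with earlier results of these data known, and are 9 of the 24883 rows of the deposited table. All 9 were among the 12205 genes whose mean level was at least 1 and that were therefore tested.

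The series profiled liver RNA by sequencing in 10 Collaborative Cross strains, inbred mouse lines that each carry their own mixture of several founder genomes: CC060, CC043, CC042, CC041, CC040, CC032, CC019, CC013, CC011 and CC003. Females and males of each strain ate 1 of 2 diets for 12 weeks, an HF/HS diet with 42% of its energy from milkfat, 0.2% cholesterol and more than 30% sucrose, or a control diet of matched ingredients with little fat and less sucrose. No mutation, transgene or drug is named in the labels, and no age. Each of the 40 groups of strain, sex and diet had 3 libraries, 120 in all; because 2 CC040 female columns, library 3 on control diet and library 1 on HF/HS, were identical, both were dropped, leaving 59 control libraries (29 female, 30 male) and 59 HF/HS libraries (29 female, 30 male). The labels do not state whether replicate libraries are different animals; the p-values therefore reflect spread among libraries, which may be technical.

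Levels are FPKM-type values, that is, read densities per transcript length, which the authors then rescaled per library. The division by length allows only a rough comparison of levels between genes. How deeply the libraries were sequenced is not known. CC003 libraries summed to 3192060 to 4629890 units and those of the other strains to 926949 to 1986960, so levels in CC003 and also in CC060 were not set against other strains. A single library stood apart in several of the 9 genes: CC060 female control 1 had a Lepr level of 230 against 7.93 and 7.09 in the other libraries of its group, an Inhbe level of 1.24 against 50.4 and 74.1, and a Lect2 level of 48.0 against 328 and 455. CC060 male control 3 had the highest Ahsg level of all, 26648. Results that rest on these libraries are given with and without them. The exception is tests within 1 strain and sex, which were run only with them.

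As background, FGF21 is a hormone of fasting and nutrient stress that acts on cells carrying an FGF receptor and its partner beta-Klotho, and GDF15 is a stress-induced cytokine that limits food intake through a receptor in the hindbrain. Transcription of both genes is known to respond to ATF4, the effector of the integrated stress response, and Fgf21 also to PPAR-alpha and to the carbohydrate-sensing factor ChREBP. Hepatocytes are the main known source of INHBE, whose dimer is activin E, and of fetuin-A, fetuin-B and LECT2. Fetuin-A binds calcium phosphate and can inhibit the insulin receptor, whereas fetuin-B protects egg coats from early hardening.

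Promoter sequences came from RefSeq on GRCm38.p6, which has the coordinates of mm10, and 8 of the 9 genes had entries, with 12 windows in all. The windows were searched over the 250 bases before each transcript start, on both strands, for 4 motifs: the E-box CACGTG, the ATF4 and C/EBP composite TGATGNAA, the cyclic AMP response element TGACGTCA and the STAT5 site TTCNNNGAA. The stretches below are shown because Fgf21, Gdf15 and Inhbe are the hormone genes for which a match was found; capitals mark the matches, and the composite appears as its reverse complement. Only short stretches are given for Gdf15 (chr8:70632162-70632189, minus strand) and Inhbe (chr10:127352011-127352040, minus strand), while the Fgf21 stretch is the whole window (chr7:45615491-45615740, minus strand).
Fgf21: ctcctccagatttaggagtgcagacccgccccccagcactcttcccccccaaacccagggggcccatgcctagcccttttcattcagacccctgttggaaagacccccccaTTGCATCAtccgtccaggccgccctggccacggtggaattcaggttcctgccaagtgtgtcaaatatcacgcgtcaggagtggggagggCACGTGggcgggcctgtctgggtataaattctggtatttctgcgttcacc
Gdf15: acagggcagggCACGTGtgagcatccag
Inhbe: catcctctttcTTGCATCAtgcatgtccac
In the Fgf21 window the composite lay 139 to 132 bases and the E-box 50 to 45 bases before the start. The Inhbe window held the composite at 181 to 174 bases, and the second Gdf15 window held the E-box at 83 to 78 bases. These windows precede RefSeq starts, but in the GENCODE annotation all 250 bases of the Inhbe window and 196 of the 250 of that Gdf15 window, both matches included, lie in untranslated exon sequence of a longer transcript of the same gene. Igfbp2 held an E-box at 142 to 137 bases before its first start. The cyclic AMP response element and the STAT5 site were found in none of the 12 windows. Of 32851 mouse windows of the same length, 6.02% held the E-box, 3.45% the composite, 1.55% the cyclic AMP response element and 7.02% the STAT5 site; a match describes letters and does not show a bound site.

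On the HF/HS diet, Gdf15 and Inhbe rose, Ahsg and Fetub fell, and the other 5 genes did not pass the test over all strains and sexes. The threshold was an adjusted p under 0.05 in limma with Benjamini-Hochberg adjustment over all 12205 genes, where 17.2% of genes were called higher and 15.4% lower, so 2 of 9 in each direction is not far from the share of all genes. The median diet difference was 0.03 over the 9 genes and 0.00059 over all genes tested, on the log2(value + 1) scale used for all differences below. Strains and sexes have equal weight in these differences.

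**Figure D1:**
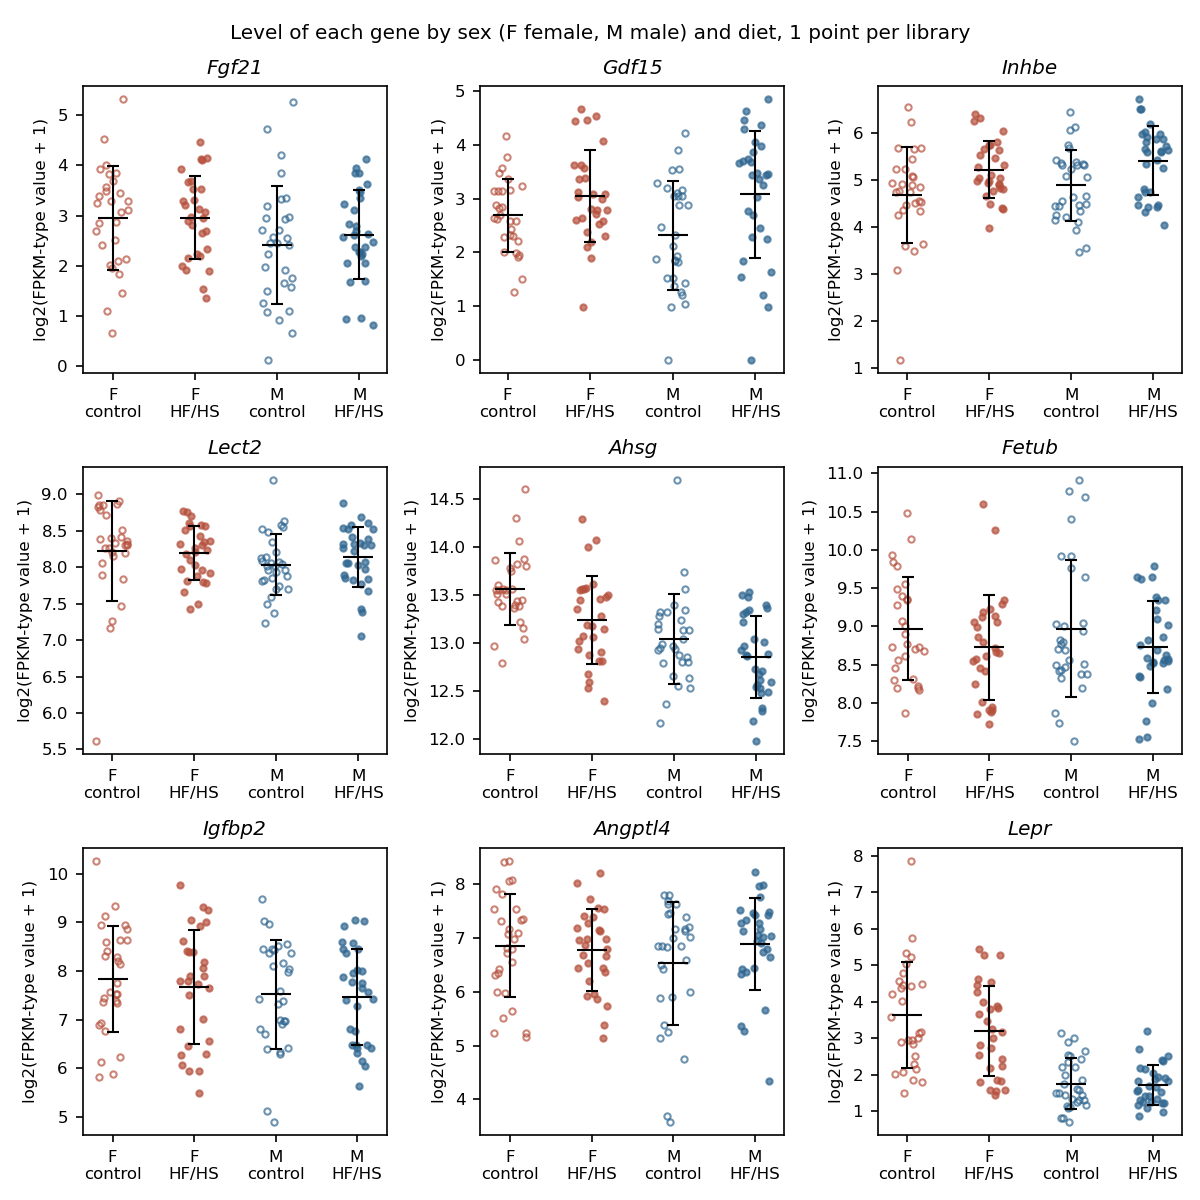
Level of each of the 9 genes in 118 libraries, as log2(FPKM-type value + 1) on the y axis, by sex and diet on the x axis; points are libraries, and black bars show the mean and SD over libraries, which includes differences between strains. Lepr and Ahsg sit lower in males than in females on both diets, and single low points mark Inhbe and Lect2 in CC060 female control 1.

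Gdf15 (chr8:70629394-70631635 on mm10, minus strand) ranged from 0 to 17.7 with a median of 5.01 in control livers (mean 5.69 ± 3.88, SD, n = 59) and from 0 to 27.9 with a median of 7.53 in HF/HS livers (9.42 ± 6.68, SD, n = 59). It was listed at 0 in 1 CC003 male library on each diet. The groups overlapped widely, and the mean difference was 0.55 ± 0.12 (SE), a factor of 1.46, with an adjusted p of 0.00024. Its mean was higher on HF/HS in 9 of 10 strains, all but CC013.

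Inhbe (chr10:127349402-127351772, minus strand) ranged from 1.24 to 92.3 with a median of 26.1 on control diet (31.4 ± 18.6, SD, n = 59) and from 14.6 to 104 with a median of 39.2 on HF/HS (43.1 ± 20.8, SD, n = 59). The difference was 0.52 ± 0.11 (SE), a factor of 1.43, with an adjusted p of 0.000166, and the mean was higher in 8 of 10 strains. An antisense transcript, Gm47200, overlaps Inhbe in the annotation, and reads of both strands cannot be told apart unless the counting used strand, which the sources used here do not state. Within 250 kb of Inhbe, a window chosen after the data were seen, 15 genes were tested. Of these, 4 including Inhbe rose and 1 fell, where 17.2% of all genes were called higher and 15.4% lower. Inhbc, the neighbouring activin C gene, differed by 0.02 (adjusted p = 0.873), and Ddit3, which encodes the stress factor CHOP, by 0.15 (adjusted p = 0.11).

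The Ahsg and Fetub genes are neighbours on chromosome 16, with Ahsg at chr16:22892015-22899451 and Fetub at chr16:22918382-22939768, both on the plus strand. Ahsg was by far the most abundant of the 9, with levels from 4599 to 26648 and a median of 10306 on control diet (10743 ± 4148, SD, n = 59), against 4043 to 20047 and a median of 8331 on HF/HS (8953 ± 3132, SD, n = 59). It fell by 0.25 on the log2 scale (SE 0.04, adjusted p = 1.76e-07), to a factor of 0.839. The mean was lower in 9 of 10 strains and in 18 of the 20 strain and sex groups.

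Fetub ranged from 181 to 1926 with a median of 435 on control diet (589 ± 389, SD, n = 59) and from 185 to 1551 with a median of 402 on HF/HS (469 ± 241, SD, n = 59). It fell by 0.24 (SE 0.05, adjusted p = 0.00021), to a factor of 0.847, with a lower mean in 8 of 10 strains. The promoters of this neighbouring pair are shown because both genes fell. The Ahsg window is chr16:22891765-22892014, and the Fetub stretch, which ends before an annotated transcript begins, is chr16:22918132-22918333.
Ahsg: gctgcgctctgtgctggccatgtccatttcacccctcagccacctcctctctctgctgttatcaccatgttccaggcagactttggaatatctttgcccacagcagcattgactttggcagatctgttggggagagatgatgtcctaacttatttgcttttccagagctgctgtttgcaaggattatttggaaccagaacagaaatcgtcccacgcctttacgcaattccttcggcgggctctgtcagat
Fetub: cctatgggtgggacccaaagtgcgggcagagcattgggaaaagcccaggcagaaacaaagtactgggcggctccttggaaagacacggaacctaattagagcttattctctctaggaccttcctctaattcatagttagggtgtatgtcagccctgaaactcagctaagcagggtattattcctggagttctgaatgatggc
None of the 4 motifs has its letters in either stretch. An antisense RNA, Gm30505, overlaps Ahsg, with the same limit on strand as for Inhbe. Within 250 kb of Ahsg, a window also chosen after the data were seen, 10 genes were tested. Of these, 5 fell, where 15.4% of all genes were called lower. The 5 include Ahsg and Fetub, whose falls were already known, so the count is no test of this region. The kininogen genes Kng2 (-0.27, adjusted p = 1.45e-09) and Kng1 (-0.28, adjusted p = 2.06e-09), which encode bradykinin precursors, were among the 5. The small RNA gene Snora81 also fell (-0.30, adjusted p = 0.00111). Hrg, which lies between Fetub and Kng2 and encodes histidine-rich glycoprotein, rose by 0.07 (adjusted p = 0.0483).

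More hepatocyte markers fell than rose on HF/HS, where 15.4% of all genes were called lower and 17.2% higher. Of 11 tested markers, 7 fell and 2 rose, and their summed level ran from 26356 to 120245 (median 48613) on control diet and from 25362 to 83529 (median 44873) on HF/HS. Among them Apoa1, a lipoprotein component, fell by 0.23, and Hnf4a, a master regulator of hepatocyte identity, fell by 0.11. Cyp2e1 rose by 0.23, and Asgr1 and Pck1 were not called. Alb, which is 1 of the 2 that rose, was listed at 0 in 102 of 118 libraries and gives no usable level. Without Alb, 7 of 10 fell and 1 rose, and the summed level ran from 26356 to 120245 (median 46964) on control diet and from 24735 to 59087 (median 41187) on HF/HS. Of 13 macrophage markers, 8 rose, with summed levels of 235 to 1932 (median 527) on control diet and 105 to 2167 (median 636) on HF/HS, and 5 of 11 stellate cell markers rose. Their part in the results for the 9 genes was not tested, and in bulk tissue fewer cells of a type and less RNA per cell cannot be told apart.

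Of the genes that did not pass the test over all strains and sexes, Fgf21 (chr7:45613890-45615490, minus strand) had a median of 5.53 on control diet and 5.93 on HF/HS, with control libraries from 0.0834 to 39.1 and HF/HS libraries from 0.764 to 21.2. Its difference was 0.10, with a 95% interval of -0.17 to 0.38 (adjusted p = 0.59). Lect2 (chr13:56542460-56548538, minus strand), a chemotactic protein made by hepatocytes, ranged from 48.0 to 586 on control diet and from 133 to 470 on HF/HS, and its difference of 0.03 had an interval of -0.09 to 0.16.

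Igfbp2 (chr1:72824480-72852471, plus strand), which binds insulin-like growth factors, had a median of 192 on control diet and 214 on HF/HS, and its difference was -0.09 (95% interval -0.28 to 0.10). Angptl4 (chr17:33774900-33781575, minus strand), an inhibitor of lipoprotein lipase and a known PPAR-alpha target, had a median of 115 on control diet and 125 on HF/HS, with a difference of 0.13 (95% interval -0.13 to 0.39). Both intervals include no change and also changes of the size seen for the fetuins. Lepr (chr4:101717407-101815354, plus strand) differed by -0.23 (95% interval -0.45 to -0.02, adjusted p = 0.0911). The Lepr difference passed the test without CC032 (-0.31, adjusted p = 0.04), without CC060 (-0.30, adjusted p = 0.00097) and without both CC003 and CC060 (-0.30, adjusted p = 0.00287), but was -0.15 (adjusted p = 0.101) when only CC060 female control 1 was left out.

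**Figure D2:**
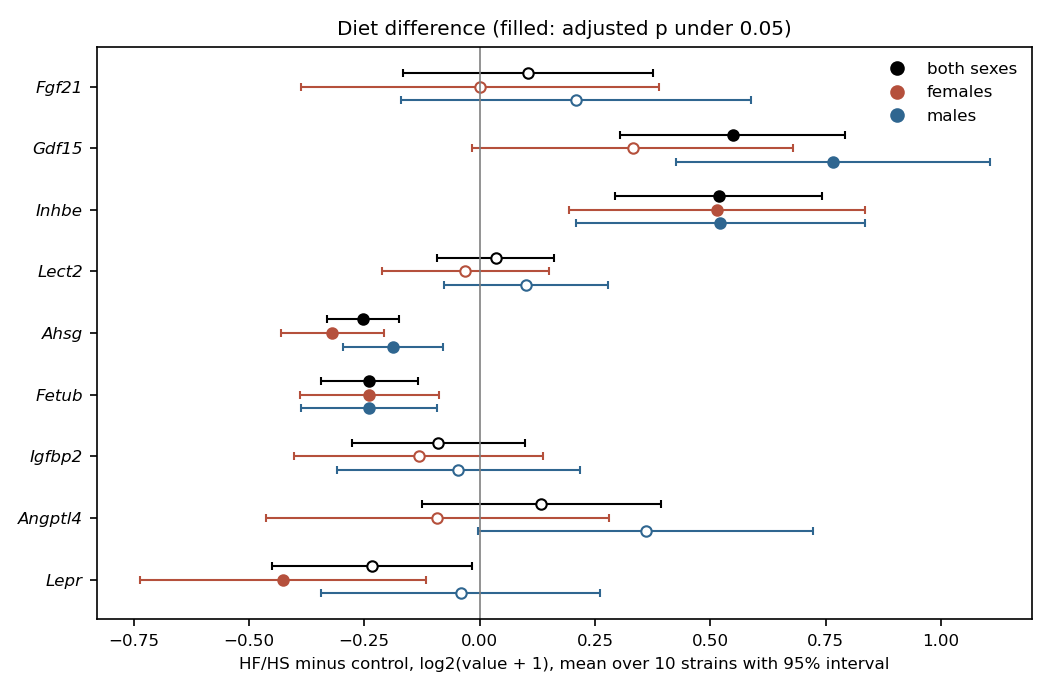
Diet difference of each gene (y axis), HF/HS minus control in log2(value + 1) on the x axis, as the mean over 10 strains with its 95% interval, for both sexes together (black), females (red) and males (blue); filled points passed an adjusted p under 0.05. Gdf15 and Inhbe lie to the right of 0 and both fetuins to the left.

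In females, 9.59% of all genes were called higher and 8.08% lower, and of the 9 genes 1 rose and 3 fell. Ahsg fell by 0.32 (SE 0.06, adjusted p = 1.32e-05), with a lower mean in 10 of 10 strains. Fetub fell by 0.24 (adjusted p = 0.0195), and Inhbe rose by 0.51 (adjusted p = 0.0181). The Fetub call was lost in 7 of 36 alternative fits. Among them were each strain as 1 unit (adjusted p = 0.097) and HF/HS library 3 of each strain left out (-0.18, adjusted p = 0.158). Leaving out CC032, CC041 or CC043 also ended it (largest adjusted p 0.125). Inhbe was at 0.20 (adjusted p = 0.265) without control library 1 of each strain, and at 0.35 (adjusted p = 0.0207) when only CC060 female control 1 was left out; leaving out CC042 gave 0.43 (adjusted p = 0.0824) and an adjusted p of 0.125 came from using each strain as 1 unit.

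Lepr in females went from 1.86 to 230 with a median of 8.02 on control diet to 1.71 to 42.9 with a median of 8.10 on HF/HS. Its mean log2 level fell by 0.43 (SE 0.16, adjusted p = 0.0461), with a lower mean in 8 of 10 strains. The call was lost in 24 of 36 alternative fits, among them the fit without CC060 female control 1 (-0.27, adjusted p = 0.0703). It was not lost when all of CC060 was left out. In CC060 females, mean log2 Lepr was 4.68 on control diet and 4.85 on HF/HS with that library included. Gdf15 in females differed by 0.33 (adjusted p = 0.187), with a higher mean in 5 strains and a lower mean in 5.

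In males, 11% of all genes were called higher and 9.93% lower, and of the 9 genes 2 rose and 2 fell. Gdf15 went from a median of 3.69 on control diet to 9.84 on HF/HS and rose by 0.77 (SE 0.17, adjusted p = 0.0004), a factor of 1.70, with a higher mean in 9 of 10 strains. Inhbe rose by 0.52 (adjusted p = 0.0104). Ahsg fell by 0.19 (adjusted p = 0.00733) and Fetub by 0.24 (adjusted p = 0.0123). The male calls of Ahsg and Fetub were lost without male control library 3 of each strain, at -0.10 (adjusted p = 0.211) for Ahsg and -0.13 (adjusted p = 0.273) for Fetub, while Ahsg without the single libraries CC060 female control 1 and male control 3 stood at -0.15 (adjusted p = 0.0141). Quantile normalization ended both calls as well, at -0.04 for Ahsg (adjusted p = 0.612) and -0.16 for Fetub (adjusted p = 0.123). Leaving out CC042 brought Fetub in males to -0.14 (adjusted p = 0.21) and Inhbe to 0.41 (adjusted p = 0.0754). When each strain counted as 1 unit, the adjusted p in males was 0.175 for Ahsg, 0.258 for Fetub and 0.0671 for Inhbe. Angptl4 in males differed by 0.36 (adjusted p = 0.162) and passed the test at 0.66 (adjusted p = 0.00915) without male control library 3 of each strain.

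The difference of the diet effect between the sexes was tested directly. It was called higher in 0.369% and lower in 0.508% of all genes and in 0 of the 9, also at an unadjusted p under 0.05. The male diet effect minus the female one was 0.43 for Gdf15 (95% interval -0.05 to 0.92, adjusted p = 0.492) and 0.38 for Lepr (95% interval -0.05 to 0.82), so the calls in 1 sex do not show that the sexes differed. Lect2 was the exception under 3 alternatives. Without CC003 and CC060 it fell by 0.18 in females (adjusted p = 0.0167) and rose by 0.22 in males (adjusted p = 0.00183), a difference of 0.40 (adjusted p = 0.00223). Without CC060 alone the difference was 0.30 (adjusted p = 0.0452), and with library weights it was 0.26 (adjusted p = 0.0178). When only CC060 female control 1 was left out, the Lect2 difference was 0.23 and was not called (adjusted p = 0.183).

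**Figure D3:**
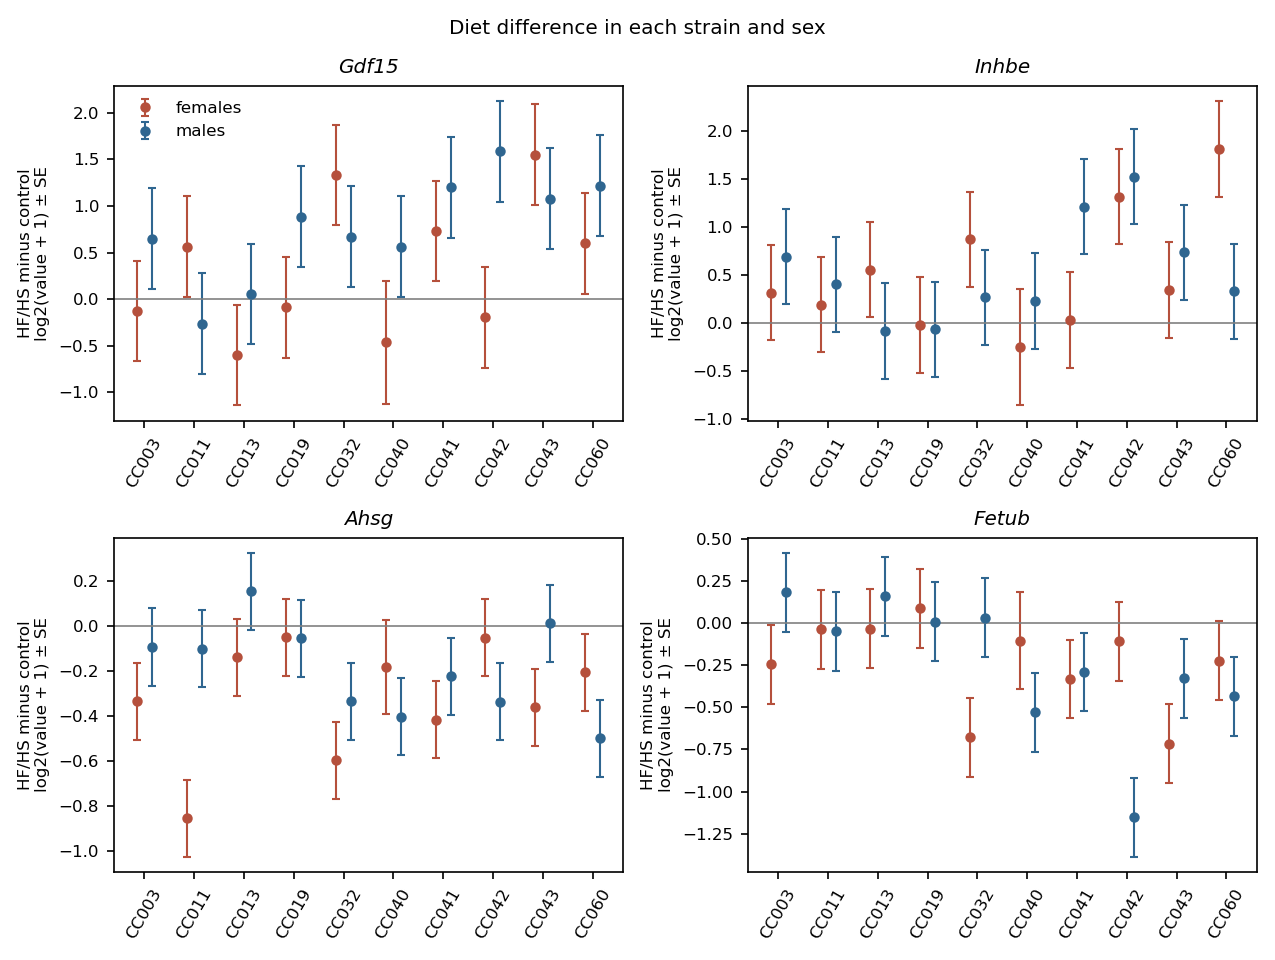
Diet difference of Gdf15, Inhbe, Ahsg and Fetub in each strain (x axis), HF/HS minus control in log2(value + 1) on the y axis, for females (red) and males (blue) with SE; each point compares 3 with 3 libraries, or 2 with 2 in CC040 females. The 3 largest falls shown are Fetub in CC042 males, Ahsg in CC011 females and Fetub in CC043 females.

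Strain by strain, with both sexes together, 4 of 10 strains had any of the 9 genes called for diet, with 7 calls among 90 tests. The share of all genes called in either direction was 9.79% in CC003, 0.197% in CC011, 0.41% in CC013, 0.852% in CC019, 5.57% in CC032, 0.401% in CC040, 4.4% in CC041, 4.51% in CC042, 6.04% in CC043 and 13.4% in CC060. CC003, CC011, CC013, CC019, CC040 and CC041 had 0 of the 9 called by limma with both sexes together, and 7 of those 54 tests were under an unadjusted p of 0.05, 4 of them in CC041. Tested within 1 strain and sex, where 3.01% of tests over all genes were called, 5 of 180 tests of the 9 genes were called: Ahsg in CC011 females, CC032 females and CC060 males, Fetub in CC042 males and Inhbe in CC060 females. Those within CC060 include the libraries that stood apart.

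Inhbe had its largest diet difference in CC042, where it rose by 1.42 (SE 0.35, adjusted p = 0.00686), a factor of 2.67. CC042 females had 7.49, 25.7 and 29.4 on control diet against 38.8, 48.8 and 52.6 on HF/HS, and males had 10.6, 17.97 and 23.98 against 41.6, 47.0 and 63.2. In both sexes every HF/HS library was above every control library. Within single groups of strain and sex this held for 11.1% of gene and group pairs over all genes. The CC042 call of Inhbe held in every alternative run. The call of Inhbe in CC060 (1.07, adjusted p = 0.0309) rested on CC060 female control 1, without which it was 0.27 (adjusted p = 0.53).

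Gdf15 had its largest diet difference in CC043, where it rose by 1.32 (SE 0.38, adjusted p = 0.0251), a factor of 2.49. Females of that strain had 3.91, 7.85 and 10.9 on control diet against 21.1, 22.2 and 24.4 on HF/HS, and males 7.96, 8.82 and 10.6 against 12.4, 23.9 and 27.9. There was no overlap in either sex, where 11.1% of gene and group pairs over all genes lay wholly above control. The call was lost in 5 of 34 alternative fits. Among them were a pseudocount of 0.1 (1.42, adjusted p = 0.12) and leaving out control library 1 of females (1.14, adjusted p = 0.0755) or HF/HS library 2 of males (1.21, adjusted p = 0.0776). Fgf21 in CC043 differed by 1.15 (adjusted p = 0.0907). Males there had 2.36, 4.32 and 4.46 on control diet against 5.10, 7.69 and 10.4 on HF/HS. Females of CC043 overlapped, at 1.13, 3.39 and 13.4 against 10.5, 11.7 and 16.7. In CC019 Fgf21 differed by -1.03 (adjusted p = 0.39). Females there had 11.9, 13.3 and 14.3 on control diet against 1.55, 2.78 and 5.25 on HF/HS. Males of CC019 overlapped, at 0.569, 6.77 and 17.4 against 3.17, 3.80 and 6.14.

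Fetub fell by 0.63 in CC042 (SE 0.17, adjusted p = 0.0122), to a factor of 0.646. In CC042 males the control libraries had 1647, 1747 and 1926 and the HF/HS libraries 789, 798 and 799, whereas CC042 females overlapped, at 919.9, 1129.6 and 1433 against 625, 1226 and 1551. Leaving out HF/HS library 3 of females brought this to -0.44 (adjusted p = 0.179). Fetub also fell by 0.52 in CC043 (adjusted p = 0.0424), a call lost in 14 alternative fits.

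Ahsg fell by 0.47 in CC032 (SE 0.12, adjusted p = 0.00974), where females had 9164, 10709 and 11212 on control diet against 5378, 7512 and 7863 on HF/HS. Without HF/HS library 1 of males the adjusted p was 0.0758. The call in CC060 (-0.35, adjusted p = 0.0408) was at -0.18 (adjusted p = 0.427) without both libraries that stood apart. In CC011, where few genes of any kind were called, Ahsg differed by -0.48 (adjusted p = 0.0788). Females there had 12115, 15003 and 15047 on control diet against 7189, 7705 and 8331 on HF/HS. These did not overlap, while males overlapped. Over all genes, 10.6% of gene and group pairs lay wholly below control. In CC011 females alone, where 0.377% of all genes were called, Ahsg fell by 0.86 (SE 0.17, adjusted p = 0.00537); whether this differed from CC011 males was not tested.

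Over the 20 strain and sex groups, all HF/HS libraries lay above all control libraries for 11.1% of gene and group pairs over all tested genes, and below for 10.6%. For the 9 genes this was 22 and 23 of 180 pairs, not far from those shares. Gdf15 lay above in 7 groups and below in 0, and Inhbe above in 5 and below in 0. Ahsg lay below in 8 and Fetub below in 5, with 0 above for either. Igfbp2 went both ways, above in 2 groups and below in 3: CC041, CC042 and CC043 males were lower, as in CC043 males with 345, 364 and 500 against 199, 214 and 234, and CC013 males were higher, with 110, 125 and 166 against 188, 219 and 254.

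Whether the diet effect differed between strains was tested with an F test, which called 5.54% of all genes and 0 of the 9. At an unadjusted p under 0.05 there were 3, Igfbp2, Fgf21 and Fetub, with adjusted p of 0.125, 0.187 and 0.223. The count depended on which libraries were used and how they were weighted. Without CC060 female control 1, Lepr (adjusted p = 0.00051), Lect2 (adjusted p = 0.0267) and Igfbp2 (adjusted p = 0.0389) were called. Without both CC060 libraries that stood apart, 3 of the 9 were called. With library weights, 8 of the 9 were called. Those weights were lowest in CC060 male control 3 (0.0333), CC060 female control 1 (0.0858) and CC011 female HF/HS 1 (0.0886). The highest was 11.4 in CC040 male HF/HS 1.

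Males had less Lepr, Ahsg and Fgf21 RNA than females on the control diet, where 24.8% of all genes were called higher and 18.8% lower in males. Lepr had a median of 8.02 in control females and 1.95 in control males, whose highest library reached 7.86. Its mean was lower in males in 10 of 10 strains, by 1.82 (SE 0.15, adjusted p = 1.77e-17), a factor of 0.284. Without CC060 female control 1 the Lepr difference was -1.66 (adjusted p = 3.12e-24). Ahsg had a median of 12017 in control females (12559 ± 3636, SD, n = 29) and 8103 in control males (8989 ± 3895, SD, n = 30), lower in males in 10 of 10 strains by 0.51 (SE 0.06, adjusted p = 5.81e-13). Fgf21 had a median of 7.65 in control females and 4.45 in control males, with a mean lower in males in 9 of 10 strains by 0.56 (adjusted p = 0.015); the exception was CC032, with 3.04, 6.35 and 7.42 in females and 9.22, 13.4 and 37.3 in males. The Fgf21 call was lost in 4 of 36 alternative fits. Among them were female control library 3 of each strain left out (-0.20, adjusted p = 0.434) and each strain as 1 unit (adjusted p = 0.113).

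**Figure D4:**
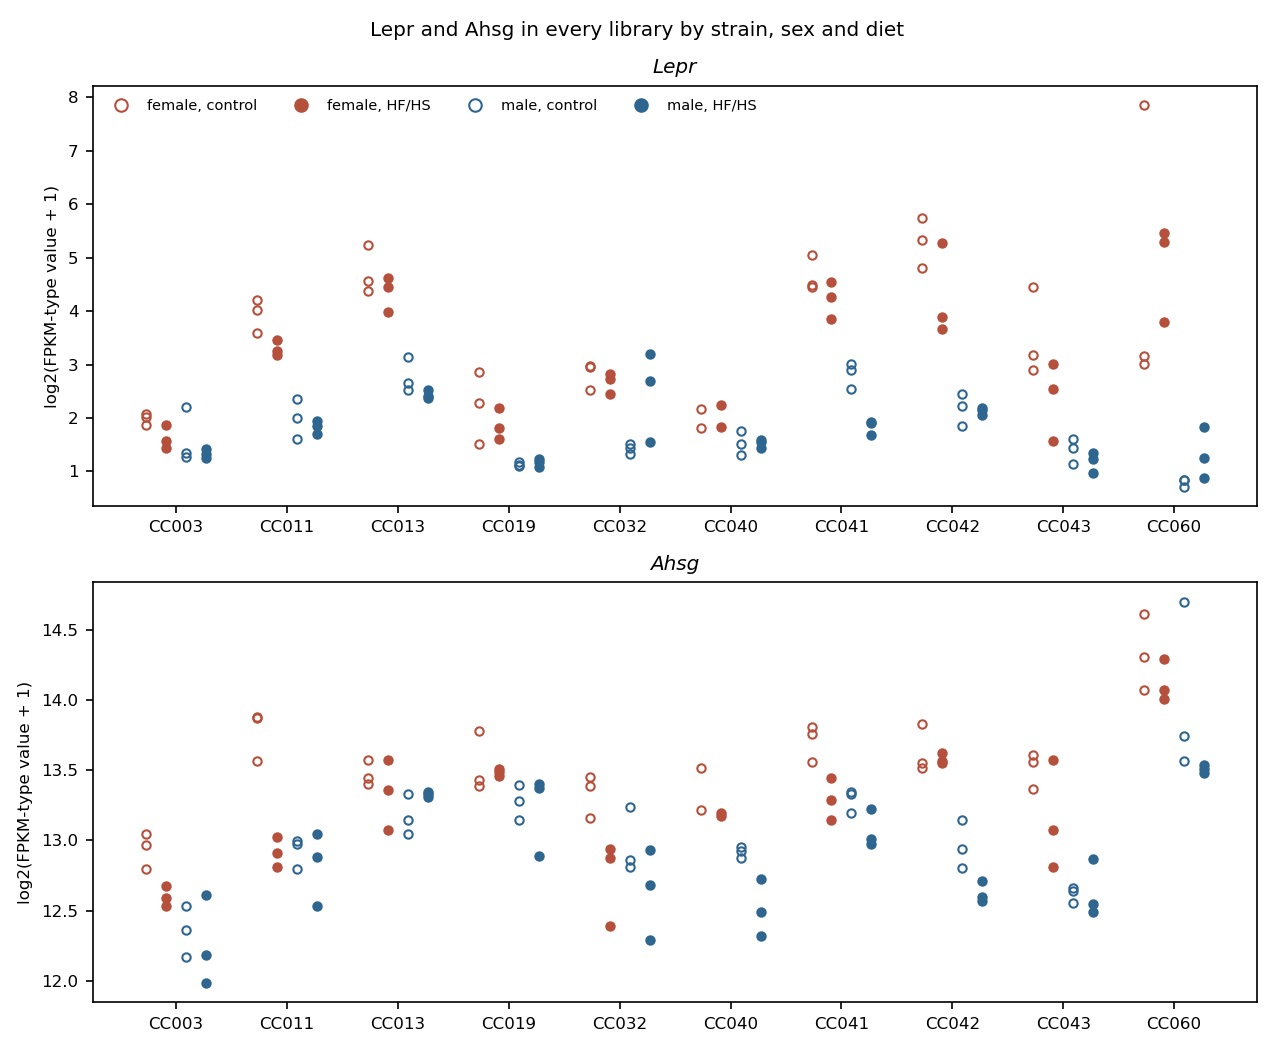
Lepr (top) and Ahsg (bottom) in each of 118 libraries, as log2(FPKM-type value + 1) on the y axis, by strain on the x axis, with females in red, males in blue, control diet as open and HF/HS as filled circles. Female points lie above male points in most strains for both genes, and the highest Lepr point, 230 before the log, is CC060 female control 1.

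On the HF/HS diet, 25.1% of all genes were called higher and 20.3% lower in males, and 2 of the 9 were lower. Lepr was lower in males by 1.43 (adjusted p = 6.58e-13) and Ahsg by 0.38 (adjusted p = 1.48e-08), each in 10 of 10 strains. Within strains the Lepr gap was wide in CC042, where control females had 26.8, 39.4 and 52.7 and control males 2.62, 3.69 and 4.45, and narrow in CC040, where 2 control females had 2.53 and 3.47 and control males 1.48, 1.85 and 2.40. On the control diet, where 18.8% of all genes were called lower and 24.8% higher in males, 9 of 13 macrophage and 9 of 11 endothelial markers were lower. Of 11 stellate cell markers 3 were lower, and of 11 hepatocyte markers 1 was lower and 3 were higher. Both of the 2 tested bile duct markers were higher. The part of these cell types in the sex difference was not tested. Gdf15 (-0.40, adjusted p = 0.0547), Igfbp2 (-0.30, adjusted p = 0.0653) and Lect2 (-0.18, adjusted p = 0.0968) were close to the threshold on control diet, and without CC060 female control 1 the sex difference passed for Gdf15 (-0.44, adjusted p = 0.0317) and Lect2 (-0.28, adjusted p = 3.54e-05).

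The strains themselves differed in all 9 genes on the control diet, as did 86.5% of all genes, by an F test over the 8 strains other than CC003 and CC060. Igfbp2 had the widest range, from 59.0 in CC032 to 417 in CC043, a factor of 6.97, as the back-transformed mean of the female and male groups. Fetub went from 330 in CC040 to 1421 in CC042 (4.30-fold), Lepr from 2.19 in CC019 to 12.5 in CC013 (4.21-fold), Inhbe from 17.3 in CC042 to 57.2 in CC040 (3.18-fold), Gdf15 from 2.84 in CC011 to 10.6 in CC040 (3.02-fold), Angptl4 from 64.9 in CC041 to 186 in CC042 (2.84-fold) and Fgf21 from 3.24 in CC041 to 9.59 in CC032 (2.50-fold). Lect2 (1.62-fold, from CC040 to CC043) and Ahsg (1.35-fold, from CC043 to CC041) had the narrowest ranges. The adjusted p ran from 1.01e-21 for Fetub to 0.0301 for Fgf21. Some fits left out 1 library per strain, from a single sex and diet at a time, and others left out 1 strain. At least 1 such fit ended the call for each of Lect2 (largest adjusted p 0.363, without CC043), Fgf21 (0.278), Ahsg (0.0983), Gdf15 (0.0814) and Inhbe (0.0605).

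**Figure D5:**
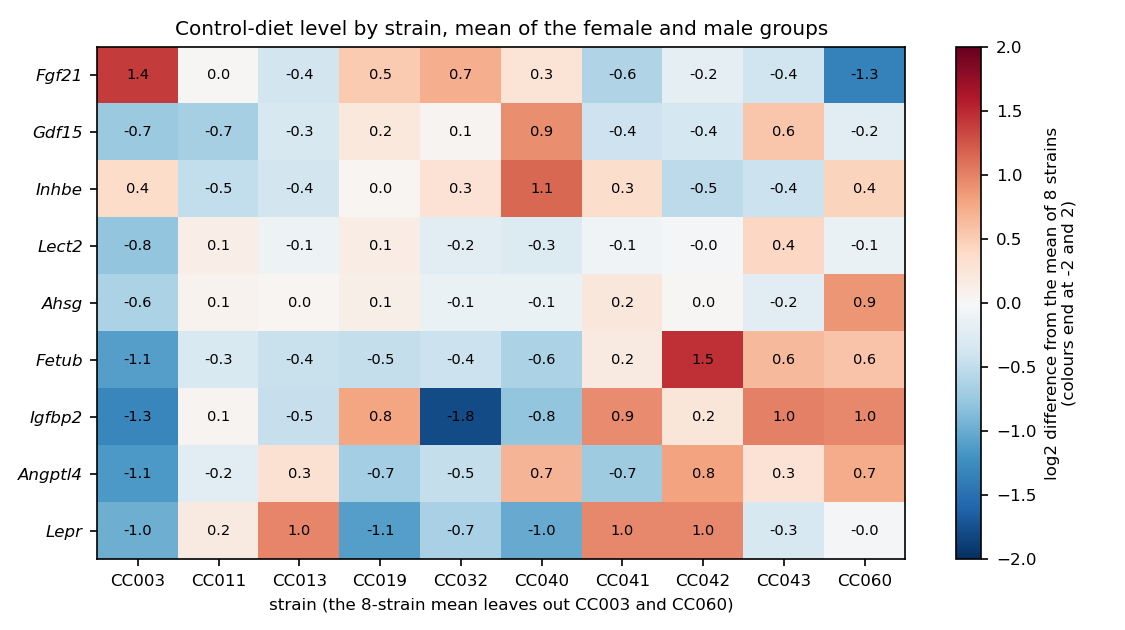
Control-diet level of each gene (rows) in each strain (columns), as the log2 difference from the mean of the 8 strains other than CC003 and CC060; red is higher, blue lower. CC042 stands out for Fetub, CC032 for low Igfbp2, and CC013, CC041 and CC042 share high Lepr.

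In the order of strains, most neighbours did not differ by more than the SD within groups. For Fetub, CC042 (1421), CC043 (807) and CC041 (581) were each separated from the next strain by more than this SD, while CC011, CC032, CC013, CC019 and CC040, from 417 to 330, were not separated step by step. For Lepr, CC013 (12.5), CC041 (12.3) and CC042 (12.3) lay together, and a gap larger than the SD followed before CC011 (6.78), CC043 (4.48), CC032 (3.36), CC040 (2.38) and CC019 (2.19). For Igfbp2, CC043 (417), CC041 (399) and CC019 (357) lay above CC042 (244), CC011 (216), CC013 (151) and CC040 (120), and CC032 (59.0) lay below CC040 by more than the SD. For Inhbe only CC040 (57.2) was apart, from CC041 (32.5) on. For Gdf15, Fgf21, Angptl4, Ahsg and Lect2 all 7 gaps between neighbours were under the SD. CC043, the strain with the largest diet difference of Gdf15, had the next highest Gdf15 level on control diet (7.996) after CC040 (10.6). The mean of Gdf15 was higher on HF/HS in 9 of 10 strains. The F test did not call strain differences of its diet effect (adjusted p = 0.349).

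The other genes of each pathway were taken from lists written from general knowledge, with earlier results of these data known. They are given for the diet difference over all strains and sexes. In that comparison 17.2% of all genes were called higher and 15.4% lower. The counts of the stress response, angiopoietin-like and leptin receptor lists below are not far from these shares. Of 10 tested FGF21 receptors and regulators, 1 rose and 4 fell (median -0.05). Klb, the beta-Klotho co-receptor through which liver cells sense FGF hormones, fell by 0.17 (adjusted p = 0.00574), Ppargc1a, a coactivator of fasting metabolism, by 0.37 (adjusted p = 9.06e-06) and the nuclear receptor gene Rora by 0.15 (adjusted p = 0.00054). Of 15 tested PPAR-alpha targets, 12 rose and 1 fell (median 0.50), among them Vnn1, which encodes pantetheinase, by 0.99 (adjusted p = 5.82e-11), Cidec, a lipid droplet protein gene, by 0.99 (adjusted p = 2.58e-10) and Acaa1b, a peroxisomal thiolase gene, by 0.90 (adjusted p = 2.81e-10). Fgf21 and Angptl4, which are known targets of the same receptor, differed by 0.10 and 0.13 without passing the test.

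Of 17 tested genes of the integrated stress response, which is known to drive Gdf15, 4 rose and 3 fell (median 0.04). Atf4 fell by 0.19 (adjusted p = 7.81e-05) and Eif2ak4, which encodes the amino acid sensor GCN2, by 0.09 (adjusted p = 0.00127), while Chac1, a glutathione-degrading enzyme gene downstream of ATF4, rose by 0.51 (adjusted p = 0.00063). Asns, the asparagine synthetase gene, had a diet effect that differed between the sexes by -0.67 (male minus female, adjusted p = 0.048), with a difference of 0.06 in females (adjusted p = 0.782), while in males Asns fell by 0.61 (adjusted p = 0.00016).

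Of 12 tested genes of activins and their antagonists, 2 rose and 4 fell (median -0.00081). Inhba, the activin A subunit gene, fell by 0.44 (adjusted p = 9.44e-05) and Fst, which encodes the activin antagonist follistatin, by 0.54 (adjusted p = 0.00023), while Fstl1 rose by 0.22 (adjusted p = 2.89e-06). Inhbe therefore moved in the opposite direction to Inhba. Of 5 tested genes of the fetuin and kininogen cluster and cystatins, 3 rose and 2 fell (median 0.07), the falls being Kng1 and Kng2 and the largest rise Cstb, a cystatin gene, by 0.14 (adjusted p = 0.0025).

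Of 13 tested genes of angiopoietin-like proteins and lipoprotein lipase, 3 rose and 2 fell (median 0.08): Lpl, the lipase that ANGPTL4 inhibits, rose by 0.71 (adjusted p = 6.96e-10), Apoc2, its activator, by 0.43 (adjusted p = 7.07e-11) and Lmf1, its maturation factor, by 0.14 (adjusted p = 0.00052). Of 9 tested genes of IGFs and their binding proteins, 2 rose and 3 fell (median -0.02), with Igfbp7 at 0.14 (adjusted p = 0.000123), Igf2r at 0.08 (adjusted p = 0.0224) and Igfbp4 at -0.11 (adjusted p = 0.0048). Of 13 tested leptin receptor signalling genes, 1 rose and 2 fell (median 0.02): Leprotl1, a relative of the gene that controls leptin receptor traffic, rose by 0.12 (adjusted p = 0.00195), and Irs2 (-0.29, adjusted p = 0.0137) and Insr (-0.09, adjusted p = 0.0277), an adaptor and the receptor of insulin signalling, fell. Of the LECT2 receptors, Met differed by 0.07 (adjusted p = 0.227) and Tie1 by 0.03 (adjusted p = 0.409), and 0 of 2 were called or had an unadjusted p under 0.05 in limma.

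The genes whose pattern was most like that of each of the 9 were named by Pearson's r of mean log2 levels over 32 groups, those of the 8 strains other than CC003 and CC060. These are descriptions across groups that share strains, sexes and diets. The closest gene was Slc39a5 for Lepr (r = 0.853), Lpin2 for Angptl4 (r = 0.847), Ppp3cc for Fetub (r = 0.838), Zfp955a for Igfbp2 (r = 0.821), Igfals for Ahsg (r = 0.821), Pde1a for Inhbe (r = 0.778), Rgn for Lect2 (r = 0.770), Abcb4 for Gdf15 (r = 0.751) and Stat5a for Fgf21 (r = 0.710). The next ones were Zufsp and Dleu2 for Lepr, Ip6k2 and Maff for Angptl4, Olfr701 and Ccdc17 for Fetub, Zfp280d and Tial1 for Igfbp2, and Pla1a and Itih2 for Ahsg. For Inhbe they were Lyplal1 and Optn, for Lect2 Hand2 and Tmem216, for Gdf15 Lamb1 and Bckdhb, and for Fgf21 Sh3bgrl and Vstm4.

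Among the 9 genes, the pairs were compared over the same 32 group means and again over the deviations of 94 libraries from their own group means. Ahsg and Lepr, both lower in males, had r = 0.624 over group means and 0.393 within groups. Fgf21 and Gdf15 had r = 0.541 over group means and 0.505 within groups, so libraries of a group with more Fgf21 also tended to have more Gdf15. Fetub and Ahsg, the neighbouring fetuin genes, had r = 0.115 over group means but 0.552 within groups. Such values within groups were not limited to neighbours. Igfbp2 and Fetub, on different chromosomes, had 0.501 and Lepr and Fetub 0.452, while the lowest pair, Lepr and Lect2, had -0.287. Libraries of a group share strain, sex and diet, and their depth is unknown.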

How the data were processed

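Liver RNA libraries were grouped by strain, sex and diet from the labels. The authors deposited 1 table of FPKM-type values per gene and library; the submitters' processing notes name the build mm10 and the tools Cufflinks 2.2.1, Bowtie2 2.2.5.0 and TopHat2 2.1.1, without giving their roles or order. The 75th percentile was 9.99 to 10.0 in every column, so values had been rescaled; the formula, annotation and filters are not given in the sources used here, nor is which library was made with the rRNA-depletion or the mRNA kit that the labels' protocols name. A value of 0 can be a failed estimate, and no counting error can be given.

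Genes whose mean over 120 columns was 1 or more were tested as log2(value + 1) in limma 3.58.1 (R 4.3.3), with 1 mean for each of 40 groups, a trended and robust prior for the spread, two-sided tests and Benjamini-Hochberg adjustment over 12205 genes. The pseudocount understates changes of low genes. Of 24883 rows, 1 had a missing value and was left out, and 821 share a symbol. The 2 identical columns were left out. The 9 genes, the gene lists and the tests were chosen with earlier results of these data known. Named genes are all 9, up to 3 genes per list with the lowest p for diet plus list genes whose diet effect differed between the sexes, and the 3 most similar genes of each. The values of 1 such list gene are not reported here. Scripts were tested on simulated data. Alternatives, run with statmod 1.5.0 where a block was fitted, were other pseudocounts, filters and scalings, library weights, a replicate block, left-out libraries and strains, and the strain as the unit; 2 of them, without CC060 libraries that stood apart, were added after seeing the data. Tests within 1 strain and sex were also added then, with no alternatives run.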

Additional observations from a re-analysis of the deposited data

Results flagged for a closer look

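The diet effect differed between the sexes, by the test of that difference in limma with Benjamini-Hochberg adjustment, in 2 genes of the lists. For Asns, whose values in each sex are given above, the male effect minus the female one was -0.67. For Orm1, an acute-phase gene on the list of secreted proteins, it was -0.78 (adjusted p = 0.0441): Orm1 fell by 0.59 in males (adjusted p = 0.00131) and differed by 0.18 in females (adjusted p = 0.422). With each strain as 1 unit neither difference passed the test, as 0 genes did and 710 had an unadjusted p under 0.05.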

How the results depend on the processing

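The diet calls of Gdf15, Inhbe, Ahsg and Fetub over all strains and sexes held in all 36 alternatives. Values were 0.36 to 0.64 for Gdf15, 0.36 to 0.62 for Inhbe, -0.28 to -0.14 for Ahsg and -0.28 to -0.18 for Fetub, with a largest adjusted p of 0.0346. Depth is unknown, so low levels such as those of Gdf15 and Fgf21 have no counting error, and 3 libraries a group limit each strain's value.

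Over all settings, 2547 single-gene values kept their direction and their side of the threshold, 123 lost a call, 66 gained one and 92 changed sign; of the counts of calls, 516 stayed within 1.5 times and 60 did not. The causes were not tested. Samples with the same replicate number did not deviate together (58 pairs, 9 with r over 0.1, range -0.222 to 0.365), so the numbers are not taken to pair them. With a replicate block, 4067 genes were called for diet, 2228 in females, 2625 in males, 114 for the diet effect between the sexes, 5321 and 5544 for sex on control and HF/HS diet, 10559 for strain and 762 for strain differences of the diet effect, and no count of the 9 genes moved.

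Genes with a differing diet effect by strain numbered 676, against 233 with 8 strains in the F test, 1093 with no filter, 448 with a filter at a mean of 5, 1099 without both CC060 libraries and 5125 with library weights. With each strain as 1 unit, genes called for diet went from 3975 to 2072, in females from 2157 to 556 with 1 of the 9, in males from 2555 to 685 with 1 of the 9, for sex from 5314 to 3091 on control diet and from 5545 to 3269 on HF/HS, and for the diet effect between the sexes from 107 to 0 in limma (710 genes at an unadjusted p under 0.05). Library weights gave 3498 genes in females, 4333 in males and 533 for the diet effect between the sexes, and called 1 of the 9 for the last, 7 for sex on control diet and 8 for strain differences of the diet effect. Without CC003 and CC060, the diet effect between the sexes was called in 58 genes and 1 of the 9, and 1 of the 9 had strain differences of the diet effect; without CC060 female control 1, or both CC060 libraries, that was 3, with 5 or 6 of the 9 called for sex on control diet. Size factors gave 6 and quantile normalization 5 for sex on control diet, and quantile normalization 2 for diet in males.

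Signs changed in genes that had not passed the test. The diet difference of Fgf21 in females became -0.025 with a pseudocount of 5, -0.020 with quantile normalization, -0.00029 with size factors, -0.040 with library weights, -0.013 without CC003 and CC060 and -0.056 without either set of CC060 libraries; Igfbp2 became 0.014 with library weights and, in males, 0.0031, 0.057 and 0.017 with quantile normalization, library weights and without both CC060 libraries. Lect2 became -0.015 without CC060 female control 1. Between the sexes, the diet effect of Inhbe became -0.016 with a pseudocount of 0.1 and -0.00084 with all 120 columns, that of Fetub 0.053, 0.028 and 0.010 with quantile normalization, library weights and without both CC060 libraries, and that of Igfbp2 -0.047 without CC003 and CC060. The sex difference on control diet of Inhbe became -0.057 without CC003 and CC060, -0.0011 without CC060 female control 1 and -0.0091 without both CC060 libraries; on HF/HS, Gdf15 became -0.076 with a pseudocount of 0.1 and Lect2 0.016 without CC003 and CC060.

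Leaving out 1 library per strain, or 1 strain, gave diet differences of -0.056 to 0.284 for Fgf21, -0.0044 to 0.071 for Lect2, -0.021 to 0.284 for Angptl4 and -0.158 to 0.0062 for Igfbp2. In females there were 1 to 4 of the 9 and 1397 to 2659 genes called, with Fgf21 at -0.320 to 0.359, Lect2 at -0.123 to 0.028 and Angptl4 at -0.322 to 0.077. In males 2 to 5 of the 9 were called, with Lepr at -0.162 to 0.064 and Igfbp2 at -0.146 to 0.145. For the diet effect between the sexes, 0 to 1 of the 9 and 36 to 134 genes were called, with Fetub at -0.080 to 0.115, Inhbe at -0.205 to 0.323, Fgf21 at -0.151 to 0.528 and Igfbp2 at -0.022 to 0.277. For sex on control diet, 2 to 6 of the 9 were called, with Inhbe at -0.156 to 0.371 and Fetub at -0.083 to 0.099; on HF/HS, Gdf15 was at -0.103 to 0.162, Fetub at -0.054 to 0.074 and Lect2 at -0.098 to 0.020. Strain differences of the diet effect were called in 0 to 2 of the 9 and 284 to 995 genes, and strain differences on control diet in 5 to 9 of the 9.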

Other observations

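Of 32 other tested genes for liver-secreted proteins with hormone-like roles, 4 rose and 17 fell on the HF/HS diet over all strains and sexes (median -0.12, against 0.00059 over all genes tested). Serpinb1a, which encodes an elastase inhibitor that promotes beta-cell growth, rose by 1.06 (adjusted p = 9.68e-19), and Gpnmb, a glycoprotein gene expressed in lipid-laden macrophages, rose by 0.92 (adjusted p = 7.48e-14). More of these 32 genes were called lower than higher, where 15.4% of all genes were called lower and 17.2% higher. Among the 9 genes, Ahsg and Fetub fell while Gdf15 and Inhbe rose. Gpnmb is also among the macrophage markers used above.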
